A study of Mus musculus with 11 samples.

Results

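Expression of 10 genes of endoplasmic reticulum (ER) stress and protein folding was examined in the gonadal white adipose tissue (WAT) of mice fed a high fat diet (HFD) with or without iodomethylcholine (IMC). The genes were chosen by symbol from the textbook account of the unfolded protein response, and all 10 are among the 12787 genes of the table. They comprise 6 genes for chaperones and folding enzymes (Hspa5, Hsp90b1, Calr, Canx, Pdia4 and Pdia6) and 4 for transcription factors of the response (Xbp1, Atf4, Atf6 and Ddit3). RNA was sequenced from male C57BL/6J mice, all of which were fed a 60% HFD for 20 weeks. The control mice (n = 5) received the HFD alone, and the IMC-treated mice (n = 6) received it with 0.06% w/w IMC, an inhibitor of the gut microbial enzyme that makes trimethylamine from choline. A further control library had been prepared and was left out by the authors for its quality. Mice on this 20-week regimen began it at 6 weeks of age, although the age is not stated for the sequenced mice in particular. Each mouse gave 1 library, so the n of every comparison is a number of mice.

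The ER folds and glycosylates proteins bound for secretion or for membranes. When unfolded proteins accumulate there, the membrane sensors IRE1, PERK and ATF6 become active. IRE1 splices the Xbp1 mRNA, PERK phosphorylates eIF2 alpha and so favors translation of ATF4, and ATF6 is cleaved in the Golgi to release a transcription factor. XBP1 and ATF6 induce chaperones and folding enzymes, while ATF4 induces genes for amino acid supply together with Ddit3, which encodes CHOP. Adipocytes and tissue macrophages both secrete large amounts of protein, and ER stress in WAT is a known companion of obesity.

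In IMC-treated mice, the mean level of 9 of the 10 genes was lower and that of 1 (Atf6) was higher than in HFD control mice, but the differences were small and the groups overlapped for each of the 10. Only Calr passed the test, and it fell by 20.1%. The values are counts per gene scaled per 1000000 reads (CPM), on a log2 scale, and every fold change is that of IMC-treated over HFD control mice. At an adjusted p under 0.05 by limma, 1 of the 10 genes was thus called, with lower expression. Over all 12787 genes, 40.9% passed the same threshold, 2556 with higher and 2680 (21.0%) with lower expression. Of the 1510 genes with a mean of at least 7 log2 CPM, a level reached by all of the 10 but Atf6 and Ddit3, 62.0% passed. Of all genes, 23.1% had values without overlap between the groups, against 0 of these 10. An unadjusted p under 0.05 was reached by 5 of them. The median log2 fold change was -0.28 over the 6 chaperone genes, -0.10 over the 4 transcription factor genes and -0.03 over all genes tested. In whole tissue, fewer cells of a type and less RNA per cell cannot be told apart, and markers of macrophages and adipocytes, given further on, differed between the same groups.

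Positions are given on the mouse genome build GRCm38 (also called mm10), with GENCODE gene models. Hspa5 is on chromosome 2 from 34771970 to 34777547 on the plus strand, Calr on chromosome 8 from 84841850 to 84846934 on the minus strand, and Hsp90b1 on chromosome 10 from 86690209 to 86705509 on the minus strand. Canx (50293961 to 50325673, minus strand) and Xbp1 (5520659 to 5525893, plus strand) are both on chromosome 11. Pdia4 is on chromosome 6 from 47796141 to 47813430 (minus strand), Pdia6 on chromosome 12 from 17266545 to 17284770 (plus strand), Atf4 on chromosome 15 from 80255184 to 80257541 (plus strand), and Atf6 on chromosome 1 from 170704674 to 170867771 (minus strand). Ddit3, on the plus strand of chromosome 10 from 127290774 to 127296288, overlaps Mars and Gm4189 on the opposite strand, and Pdia6 overlaps Atp6v1c2 on the opposite strand. Hsp90b1 overlaps the pseudogene 1810014B01Rik on the opposite strand, and Gm15344 and the miRNA Gm25745 on its own strand. Pdia4 overlaps the miRNA Mir704, and Atf6 the snRNAs Gm23523 and Gm25235, each on its own strand. The libraries were directional, but which strand was counted is not given in the sources used here, so reads of such partners could have been counted together.

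Promoter sequences of RefSeq (GRCm38.p6, 250 bases before to 50 bases after the annotated start) were matched by symbol for 9 of the 10 genes, Atf6 being the one without an entry. They were searched on both strands for the ER stress response element, the site through which ATF6 and XBP1 are known to act, spelled CCAAT, then any 9 bases, then CCACG. Of the 9 genes, 5 held it (Hspa5, Hsp90b1, Calr, Canx and Pdia6). It was present in 0.137% of the 27025 genes with a window and in 0.164% of the 9749 among them that the table lists. As the genes were chosen from the textbook account of the same response, the contrast with these shares is no test. The elements and windows of the 5 genes are printed as a description. Whether the element bears on the levels of these genes was not tested. The elements are printed in the direction CCAAT to CCACG, with the outer motifs in capitals.
Hspa5, chr2:34772025-34772043: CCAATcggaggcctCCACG
Hsp90b1, distal, chr10:86705638-86705656: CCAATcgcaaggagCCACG
Hsp90b1, proximal, chr10:86705533-86705551: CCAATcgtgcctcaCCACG
Calr, chr8:84847075-84847093: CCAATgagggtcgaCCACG
Canx, chr11:50325800-50325818: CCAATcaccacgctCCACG
Pdia6, chr12:17266491-17266509: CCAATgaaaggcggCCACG

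The whole windows follow, 5′ to 3′ on the strand of each gene, with each 19-base element in capitals. That of Hspa5 is on the plus strand, those of Hsp90b1, Calr and Canx are on the minus strand, and that of Pdia6 is on the plus strand.
Hspa5, chr2:34771840-34772139: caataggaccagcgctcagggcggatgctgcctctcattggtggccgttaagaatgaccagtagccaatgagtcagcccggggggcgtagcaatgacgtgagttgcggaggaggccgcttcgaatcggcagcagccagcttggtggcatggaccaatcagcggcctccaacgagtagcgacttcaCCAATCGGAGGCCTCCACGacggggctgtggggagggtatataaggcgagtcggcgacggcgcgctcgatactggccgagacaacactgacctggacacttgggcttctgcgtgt
Hsp90b1, chr10:86705395-86705694: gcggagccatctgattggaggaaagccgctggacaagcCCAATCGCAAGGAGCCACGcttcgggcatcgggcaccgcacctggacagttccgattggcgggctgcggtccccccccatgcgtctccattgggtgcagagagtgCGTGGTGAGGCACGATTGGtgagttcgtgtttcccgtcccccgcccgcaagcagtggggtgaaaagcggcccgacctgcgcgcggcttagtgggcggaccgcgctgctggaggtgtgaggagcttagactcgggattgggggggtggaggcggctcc
Calr, chr8:84846882-84847181: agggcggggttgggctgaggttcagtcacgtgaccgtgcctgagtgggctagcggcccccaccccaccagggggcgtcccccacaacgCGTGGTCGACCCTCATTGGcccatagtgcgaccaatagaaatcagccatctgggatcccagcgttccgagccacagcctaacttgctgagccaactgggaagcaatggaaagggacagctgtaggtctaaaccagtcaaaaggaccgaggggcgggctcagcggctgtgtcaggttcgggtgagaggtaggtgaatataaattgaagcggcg
Canx, chr11:50325624-50325923: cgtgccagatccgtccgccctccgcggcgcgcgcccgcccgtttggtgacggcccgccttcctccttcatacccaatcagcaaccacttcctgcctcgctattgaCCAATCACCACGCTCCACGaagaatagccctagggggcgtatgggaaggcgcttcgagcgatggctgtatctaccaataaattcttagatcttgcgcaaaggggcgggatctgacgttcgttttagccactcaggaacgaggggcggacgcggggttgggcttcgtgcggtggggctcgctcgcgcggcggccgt
Pdia6, chr12:17266339-17266638: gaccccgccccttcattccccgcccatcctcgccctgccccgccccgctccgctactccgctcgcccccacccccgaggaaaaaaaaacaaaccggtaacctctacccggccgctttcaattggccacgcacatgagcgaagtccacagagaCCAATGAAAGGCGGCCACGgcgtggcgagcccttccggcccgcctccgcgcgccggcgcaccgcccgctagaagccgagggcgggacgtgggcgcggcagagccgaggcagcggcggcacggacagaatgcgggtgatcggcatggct

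Distances are from the RefSeq start, at 34772090 for Hspa5, 86705444 for Hsp90b1, 84846931 for Calr, 50325673 for Canx and 17266589 for Pdia6. These starts differ from the ends of the GENCODE models given above, except for Canx. The first base of the element lay 65 bases before the RefSeq start in Hspa5, 98 in Pdia6, 145 in Canx and 162 in Calr, and Hsp90b1 held a pair of elements, 107 and 212 bases before its start. From the GENCODE start, the element of Hspa5 began 55 bases inside the gene model and that of Pdia6 lay 54 bases before it. The element ran on the strand of the gene in Hspa5, Canx, Pdia6 and the distal site of Hsp90b1, and on the other strand in Calr and the proximal site of Hsp90b1. A second form of the element, ATTGG, any 1 base and CCACG, was found in none of the 9 windows and in 0.0444% of all genes. The octamers TGACGTGG and TGACGTGA, which hold the core bound by ATF and XBP1 factors, were found in Hspa5 only, 157 bases before the RefSeq start, and in 1.22% of all genes. The motif TGATGNAAN, the composite site of C/EBP and ATF proteins, was found in none of the 9 and in 4.50% of all genes. A match is a description of letters in this window, and no binding was measured.

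**Figure D1:**
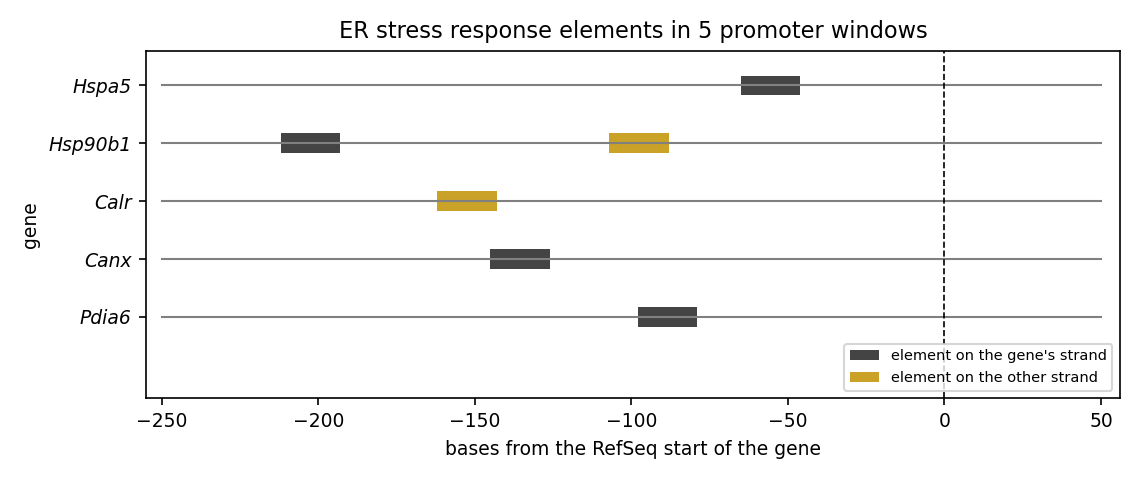
Positions of the ER stress response element in the promoter windows of the 5 genes that held it; the x axis is the distance in bases from the RefSeq start (dashed line), the grey line is the window searched, and each bar is a 19-base element, dark on the strand of the gene and yellow on the other strand. The element nearest to a start is that of Hspa5, 65 bases before it, and Hsp90b1 has a pair of elements.

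Calr encodes calreticulin, a soluble lectin chaperone of the ER that binds calcium and newly glycosylated proteins. Its log2 CPM values were 10.49, 10.24, 10.21, 9.91 and 10.07 in HFD control mice 1 to 5. In IMC-treated mice, its log2 CPM ranged from 9.66 to 10.06, with a median of 9.86. Thus 4 of the 5 control mice were above the highest IMC-treated mouse, while control mouse 4 was inside the range of the treated mice. It averaged 10.19 ± 0.22 log2 CPM in HFD control mice (SD, n = 5) and 9.86 ± 0.18 in IMC-treated mice (SD, n = 6). This amounts to a log2 fold change of -0.32 (adjusted p = 0.0285 by limma, over all genes, SE 0.11), with a 95% confidence interval from -0.56 to -0.09. The call rested on single mice, since the adjusted p rose above the threshold without control mouse 1 (0.0736), 2 (0.0560) or 3 (0.0580) and without IMC-treated mouse 1 (0.0596), 2 (0.0622) or 6 (0.0554). Without each mouse in turn, its log2 fold change was between -0.39 and -0.25.

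Hspa5 encodes BiP, the main Hsp70 chaperone of the ER, which also holds the stress sensors inactive. Its log2 CPM was 10.49, 10.42, 10.11, 9.67 and 9.95 in HFD control mice 1 to 5 and ranged from 9.63 to 10.05 in IMC-treated mice, with a median of 9.80. The 3 highest values belonged to control mice, whereas control mouse 4 was close to the lowest of the IMC-treated mice. Its log2 fold change was -0.31 (adjusted p = 0.0860 by limma, SE 0.14) and did not pass, with a 95% confidence interval from -0.61 to -0.02. The value depended on single mice, since it was -0.22 without control mouse 1 (adjusted p = 0.214 by limma), -0.24 without control mouse 2 (adjusted p = 0.196) and -0.42 without control mouse 4, where it passed (adjusted p = 0.0163).

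Hsp90b1 encodes GRP94, the Hsp90 chaperone of the ER, which folds integrins and Toll-like receptors among others. On the linear scale, it had 1097, 1024, 960, 798 and 697 CPM in HFD control mice 1 to 5. IMC-treated mice had between 609 and 866 CPM, with a median of 752 CPM, so that control mouse 5 was below 3 of them. For Hsp90b1 the log2 fold change was -0.30 (adjusted p = 0.0848 by limma, SE 0.13). It ranged from -0.23 without control mouse 1 (adjusted p = 0.203 by limma) to -0.39 without control mouse 5, where it passed (adjusted p = 0.0238).
Canx encodes calnexin, the membrane-bound partner of calreticulin in the folding of glycoproteins. Its log2 CPM was 9.44, 9.32, 9.34, 9.17 and 8.99 in HFD control mice 1 to 5, and between 8.96 and 9.26 with a median of 9.11 in IMC-treated mice. The difference of -0.15 (adjusted p = 0.164 by limma, SE 0.08) was less than that of Calr, and a 95% confidence interval from -0.33 to 0.03 bounded it. It ranged from -0.10 without control mouse 1 (adjusted p = 0.355 by limma) to -0.22 without control mouse 5, where it passed (adjusted p = 0.0331). Whether Calr and Canx differed in their change was not tested.

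Pdia4 and Pdia6 encode protein disulfide isomerases, which form and rearrange disulfide bonds in the ER. The log2 CPM of Pdia4 was 7.81, 7.81, 7.54, 7.29 and 7.27 in HFD control mice 1 to 5, and between 7.04 and 7.51 with a median of 7.29 in IMC-treated mice. For Pdia6, the values of HFD control mice 1 to 5 were 8.70, 8.62, 8.52, 8.16 and 8.19 log2 CPM, and those of IMC-treated mice lay between 8.05 and 8.37 with a median of 8.23. In both genes control mice 1 to 3 were above all IMC-treated mice, and control mice 4 and 5 were within their range. These gave a log2 fold change of -0.26 (adjusted p = 0.117 by limma, SE 0.12) for Pdia4 and -0.23 (adjusted p = 0.0968 by limma, SE 0.10) for Pdia6. Pdia6 passed without control mouse 4 (log2 fold change -0.30, adjusted p = 0.0344 by limma) and without control mouse 5 (-0.29, adjusted p = 0.0410), while it was -0.16 without control mouse 1 (adjusted p = 0.237).

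**Figure D2:**
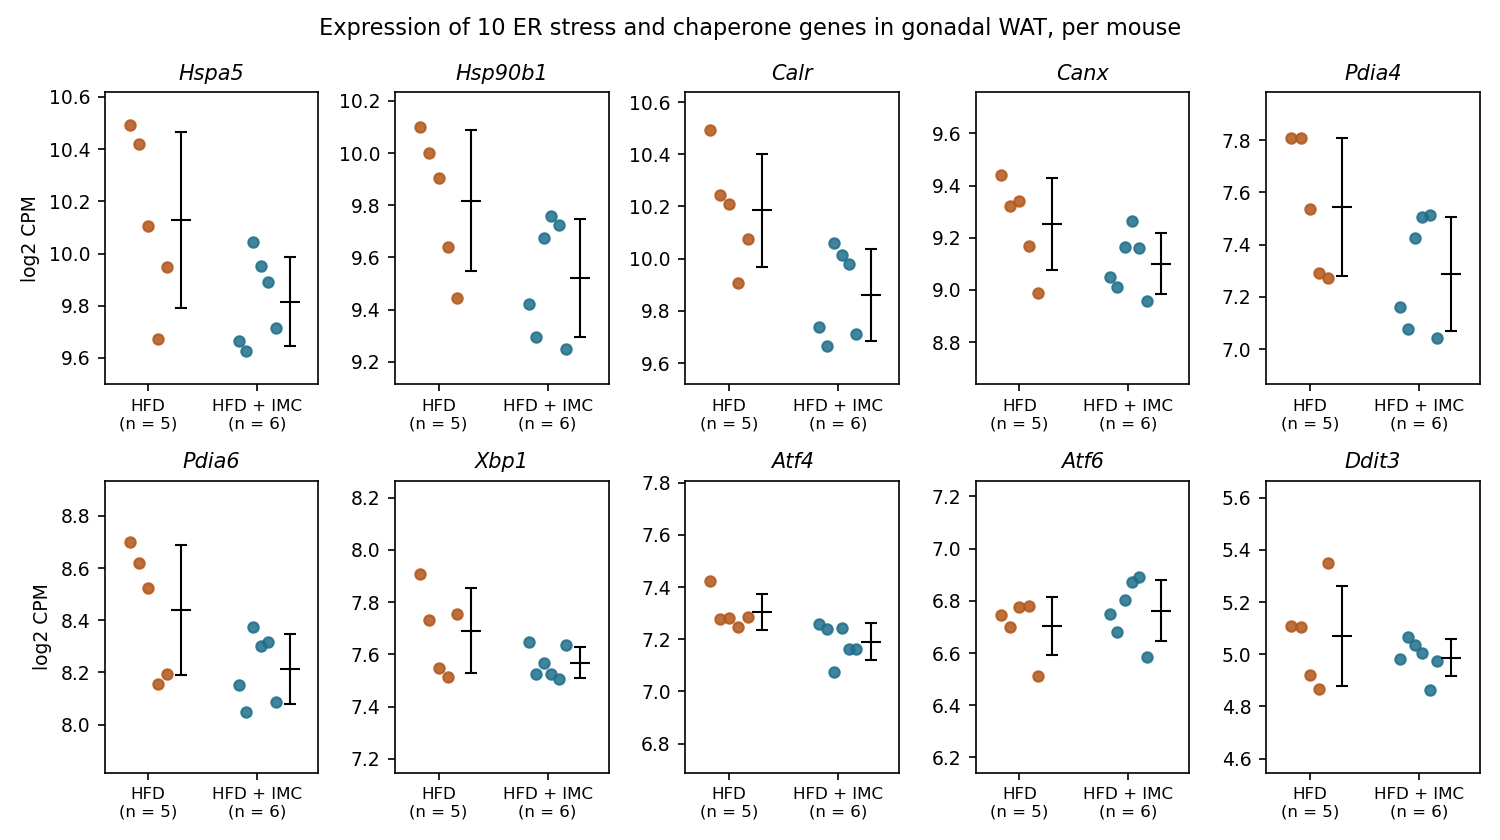
Log2 CPM of the 10 genes in each mouse; every point is 1 mouse, in the order of mouse number within its group, and the bar beside each group is the mean ± SD (HFD, n = 5; HFD + IMC, n = 6). All panels span the same height in log2 units, and the groups overlap in all 10 panels, with control mice 1 to 3 above every IMC-treated mouse for Hspa5, Hsp90b1, Calr, Canx, Pdia4 and Pdia6.

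Among the transcription factor genes, Atf4 had the most even values. Its log2 CPM was 7.42, 7.28, 7.28, 7.25 and 7.28 in HFD control mice 1 to 5, and between 7.07 and 7.26 with a median of 7.20 in IMC-treated mice. Only control mouse 4 lay below the highest IMC-treated mouse. With a log2 fold change of -0.11 (adjusted p = 0.0710 by limma, SE 0.05), Atf4 did not pass, and the 95% confidence interval was from -0.22 to -0.01. The two-sided exact permutation test of this single gene over all splits of the mice gave an unadjusted p of 0.0130. With the libraries scaled to their total reads in place of the upper quartile, Atf4 passed (log2 fold change -0.15, adjusted p = 0.0183 by limma). As ATF4 is controlled mainly by translation, its mRNA does not measure the protein.

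Xbp1 had 7.91, 7.73, 7.55, 7.51 and 7.75 log2 CPM in HFD control mice 1 to 5. The IMC-treated mice had between 7.50 and 7.65, with a median of 7.55, and 3 of the control mice were above all of them. The log2 fold change of -0.12 (SE 0.07) did not pass (adjusted p = 0.160 by limma, 95% confidence interval from -0.27 to 0.02), and it was -0.07 without control mouse 1. Counts per gene do not separate the spliced from the unspliced form of Xbp1, so the activity of IRE1 was not measured.
Atf6, whose protein is both a sensor and a transcription factor, was the only one of the 10 genes with a higher mean in IMC-treated mice. Its log2 CPM was 6.75, 6.70, 6.78, 6.78 and 6.51 in HFD control mice 1 to 5 and between 6.59 and 6.89 with a median of 6.78 in IMC-treated mice. The ranges overlapped over most of their length, and the difference of 0.06 (adjusted p = 0.495 by limma, SE 0.07) had a 95% confidence interval from -0.08 to 0.20. Without control mouse 5, which had the lowest value, it was 0.01.
Ddit3, which encodes the factor of stress-induced cell death CHOP, had 5.11, 5.10, 4.92, 4.87 and 5.35 log2 CPM in HFD control mice 1 to 5. IMC-treated mice lay between 4.86 and 5.06, with a median of 4.99, inside the range of the control mice but for 1 mouse just below it. The difference was -0.08 (adjusted p = 0.422 by limma, SE 0.08, 95% confidence interval from -0.25 to 0.09). Without control mouse 5, which had the highest value, it was -0.01. In these libraries Ddit3 had between 695 and 957 reads per mouse, the fewest of the 10 genes.

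**Figure D3:**
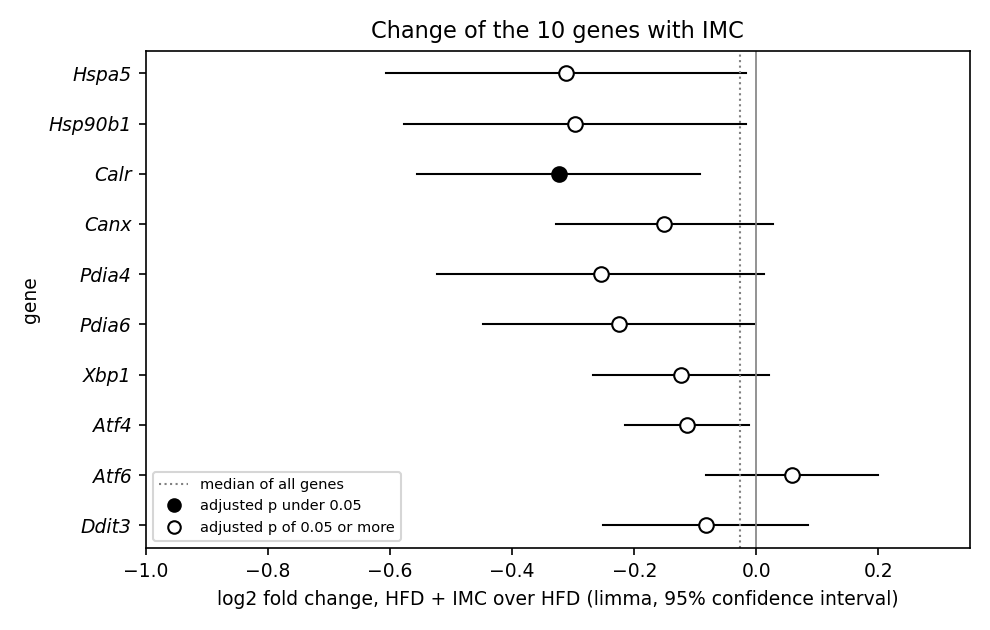
Log2 fold change of the 10 genes in IMC-treated over HFD control mice by limma, with the 95% confidence interval as a line; the filled point passed an adjusted p of 0.05 and the open points did not, and the dotted line is the median of all genes. Calr at -0.32 is the filled point, and Atf6 at 0.06 is the only gene to the right of 0.

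Levels between genes were compared per length, as CPM divided by the exon length of GENCODE in kilobases (RPKM). In HFD control mice, Calr had the highest level with 538 ± 82.0 RPKM (SD, n = 5). It was followed by Hsp90b1 with 324 ± 58.2 RPKM and Hspa5 with 304 ± 69.3 RPKM, which did not differ beyond their spread. Pdia6 with 161 ± 27.2 and Canx with 143 ± 17.0 RPKM were also alike within their spread. Atf4 with 91.6 ± 4.51, Xbp1 with 86.9 ± 9.83 and Pdia4 with 78.8 ± 14.3 RPKM came next and overlapped, whereas Ddit3 with 38.0 ± 5.12 and Atf6 with 14.4 ± 1.07 RPKM were the lowest. The order was the same in IMC-treated mice, from 429 ± 52.0 RPKM for Calr to 15.0 ± 1.20 RPKM for Atf6 (SD, n = 6). RPKM values depend on the exons counted as part of each gene, and these may differ from the annotation used by the authors.

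For each of the 6 chaperone genes, the range within the control group exceeded the difference between the group means. Control mouse 1 had the highest value of all 11 mice for each of the 6 chaperone genes, and control mice 1, 2 and 3 were above the mean of the 11 mice for all 6. Among the IMC-treated mice, mice 1, 2 and 6 were below that mean for all 6 chaperone genes, while mouse 3 was above it for 5, mouse 4 for 4 and mouse 5 for 3. The summed level of the 6 genes was 5312, 4863, 4448, 3591 and 3717 CPM in HFD control mice 1 to 5. It was 3308, 3146, 4019, 4002, 3882 and 3188 CPM in IMC-treated mice 1 to 6. Control mice 4 and 5 therefore lay within the range of the IMC-treated mice. The spread of Hspa5 within groups (residual SD 0.26 on the log2 scale) was larger than that of 82.5% of all genes, and those of Hsp90b1 (0.25) and Pdia4 (0.24) were larger than 80.6% and 79.5% of them. Atf4, in contrast, varied less than most genes, with a residual SD of 0.070 that exceeded 11.4% of them. The median residual SD was 0.13 over all genes and 0.11 over the 1510 genes with a mean of at least 7 log2 CPM. Hspa5 had between 17987 and 31959 reads per mouse, for which counting alone gives an expected SD of 0.00936 on the log2 scale.

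**Figure D4:**
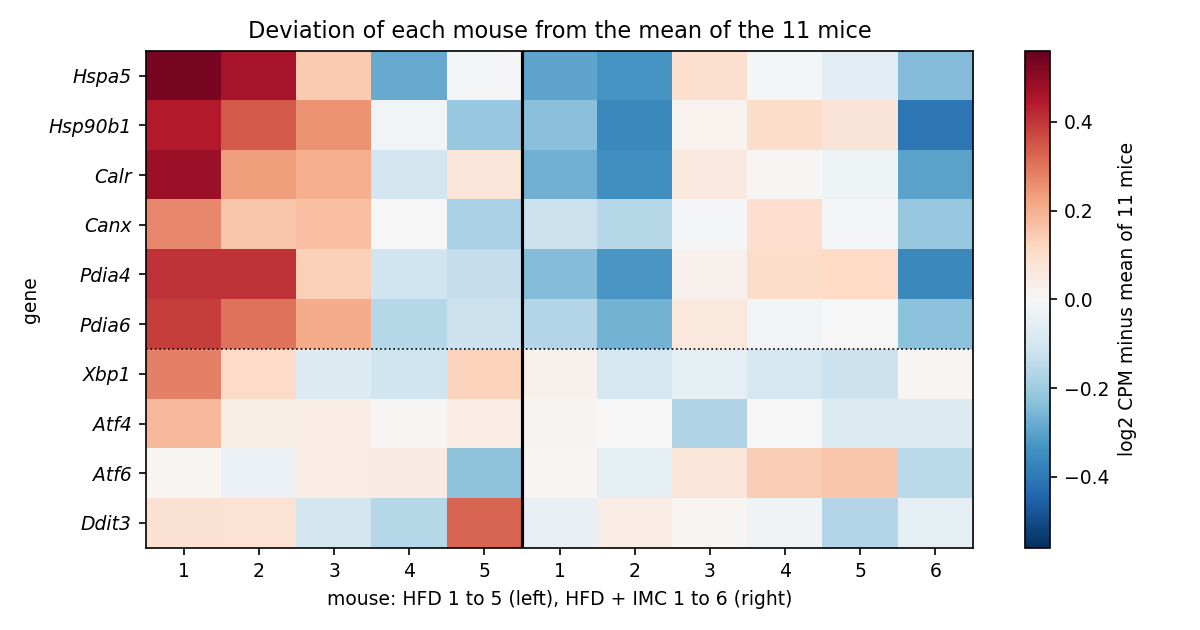
Deviation of each mouse from the mean of the 11 mice, in log2 CPM, for the 10 genes; columns are HFD control mice 1 to 5 and IMC-treated mice 1 to 6 (black line between the groups), and the dotted line separates the 6 chaperone genes from the 4 transcription factor genes. Control mice 1 to 3 are above the mean (red) and IMC-treated mice 1, 2 and 6 below it (blue) for all 6 chaperone genes, while Ddit3 is highest in control mouse 5.

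The likeness of patterns was measured as Pearson's r of the deviations from the group means over the 11 mice, given as a description because the mice share library scaling. Over the whole table, the genes most like Hspa5 were Manf (r = 0.970, Spearman's rho = 0.955), Creld2 (r = 0.955, rho = 0.927) and Hsp90ab1 (r = 0.952, rho = 0.918). Manf and Creld2 encode secreted ER stress proteins, and Hsp90ab1 encodes a cytosolic Hsp90 chaperone. Of the 10 genes, Pdia6 was the fourth most like Hspa5 of all genes (r = 0.948), Calr the ninth (r = 0.928) and Pdia4 the twentieth (r = 0.895), followed by Hsp90b1 (r = 0.818) and Canx (r = 0.748). The transcription factor genes were less like it, with r = 0.524 for Xbp1, r = 0.307 for Atf6, r = 0.189 for Ddit3 and r = 0.167 for Atf4. Xbp1 was most like Vapa (r = 0.957), Cyb5a (r = 0.956) and Taldo1 (r = 0.945). Atf4 was most like Pex2 (r = 0.912), Frem1 (r = 0.902) and Psmd1 (r = 0.890), and Ddit3 most like Itgad (r = 0.917), Cenpv (r = 0.900) and Pafah2 (r = 0.894). None of the genes most like Xbp1, Atf4 or Ddit3 belongs to the lists of ER genes used here, which were written by hand and do not hold every gene of the ER.

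In the list of other ER chaperones and folding enzymes, 17 of 40 genes were lower and 5 higher with IMC by limma (adjusted p under 0.05), and 18 did not pass. Their median log2 fold change was -0.14, and 55.0% of them passed, beside 40.9% of all genes. The 5 higher genes were Qsox1, Creld1, Fkbp9, Ppic and Sil1, and the genes of smallest p were Qsox1, Rcn3, Ppib and Cnpy2. Qsox1, which encodes a sulfhydryl oxidase of the secretory pathway, rose from 6.97 ± 0.10 log2 CPM in control mice (SD, n = 5) to 7.38 ± 0.02 in treated mice (SD, n = 6). Rcn3, which encodes a calcium-binding protein of the ER, had a log2 fold change of -0.45 (SE 0.07). Ppib, which encodes the prolyl isomerase cyclophilin B, had one of -0.28 (SE 0.05), and Cnpy2 one of -0.24 (SE 0.04).
Of the genes nearest to Hspa5 in pattern, Manf and Creld2 passed the test. Manf averaged 6.72 ± 0.30 log2 CPM in HFD control mice (SD, n = 5) and 6.17 ± 0.17 in IMC-treated mice (SD, n = 6), a log2 fold change of -0.55 (adjusted p = 0.00345 by limma, SE 0.12). Creld2 had a log2 fold change of -0.58 (adjusted p = 0.00363 by limma, SE 0.13). Hsp90ab1 did not pass, with -0.16 (adjusted p = 0.140 by limma, SE 0.08). Sdf2l1, which encodes a cofactor of BiP, and Pdia3, which encodes the disulfide isomerase that works with calreticulin and calnexin, were singled out after their values were seen. Sdf2l1 ranged from 5.44 to 6.36 log2 CPM in HFD control mice and from 4.67 to 5.40 in IMC-treated mice, without overlap (log2 fold change -0.74, SE 0.16). Pdia3 ranged from 9.36 to 9.81 and from 8.98 to 9.31 log2 CPM, also without overlap (log2 fold change -0.37, SE 0.09). In the whole list of other chaperones, 11 of 40 genes had no overlap between the groups, beside 23.1% of all genes. Hyou1, Sel1l and Dnajb9, also named after their values were seen and like Hspa5 in pattern (r = 0.945, 0.927 and 0.755), did not pass. Their log2 fold changes were -0.30, 0.06 and 0.11 (adjusted p = 0.0998, 0.415 and 0.183 by limma). Whether these changes differ from that of Hspa5 was not tested.

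The genes of entry into the ER, signal peptide cleavage and N-glycosylation had 12 of 39 lower and 4 higher, with a median log2 fold change of -0.05. Sec11c, which encodes a subunit of the signal peptidase, fell from 6.41 ± 0.15 log2 CPM in HFD control mice (SD, n = 5) to 5.92 ± 0.11 in IMC-treated mice (SD, n = 6). Tram1, which encodes a protein of the translocon, had a log2 fold change of -0.33 (SE 0.06), Sec11a one of -0.20 (SE 0.04), and Sec61a2 rose by 0.34 (SE 0.06). The other higher genes were Srpr, Stt3b and Uggt2, named after their values were seen. At 41.0%, the share of this list that passed in either direction was close to that of all genes. The 12 of 39 lower stand beside 21.0% of all genes, and the 4 higher beside 2556 of 12787.
For ER-associated degradation, which returns misfolded proteins to the cytosol for the proteasome, 6 of 30 genes were higher and 4 lower, with a median log2 fold change of -0.0012 and 33.3% called beside 40.9% of all genes. The balance of this list depended on the scaling, with 3 higher and 6 lower under scaling to total reads. Its genes of smallest p were Selk (-0.36, SE 0.06), Erlec1 (0.34, SE 0.06), Nploc4 (0.21, SE 0.04) and Aup1 (-0.26, SE 0.05), each given as log2 fold change. Edem2 and Ubxn6 were the other lower genes.

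The genes for the stress sensors, the proteases that cleave ATF6 and the kinases and phosphatase subunits acting on eIF2 alpha had 1 of 13 lower and 0 higher, or 7.69% called beside 40.9% of all genes. The gene called was Wfs1, which encodes wolframin, a membrane protein of the ER (log2 fold change -0.47, SE 0.10, adjusted p = 0.00191 by limma). Ern1, which encodes IRE1, averaged 4.37 ± 0.18 log2 CPM in HFD control mice (SD, n = 5) and 4.46 ± 0.32 in IMC-treated mice (SD, n = 6; adjusted p = 0.636 by limma). Eif2ak3, which encodes PERK, was nearly constant, between 5.36 and 5.39 log2 CPM in HFD control mice and between 5.35 and 5.43 in IMC-treated mice. Its difference of 0.02 had a 95% confidence interval from -0.06 to 0.10. Ppp1r15b (-0.11, SE 0.05), Mbtps2 (-0.18, SE 0.08) and Eif2ak2 (0.11, SE 0.07), next by p, did not pass by limma.

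Of the genes known as targets of ATF4 and CHOP, 15 of 42 were higher and 2 lower with IMC and 25 did not pass, with a median log2 fold change of 0.09. Phgdh and Psat1 encode enzymes of serine synthesis from glucose. Phgdh rose from 4.67 ± 0.32 log2 CPM in control mice (SD, n = 5) to 5.69 ± 0.16 in treated mice (SD, n = 6), a log2 fold change of 1.02 (SE 0.13), and Psat1 by 0.62 (SE 0.07). Vldlr, which encodes a receptor for triglyceride-rich lipoproteins, rose by 0.93 (SE 0.10), and Cth, which encodes the last enzyme of cysteine synthesis, by 0.63 (SE 0.08), all without overlap between the groups. The 2 lower genes were Atf3, a stress-induced transcription factor (log2 fold change -0.71, SE 0.12), and Gdf15, a stress-induced cytokine (-0.83, SE 0.21). The list holds enzymes and transporters that other pathways also regulate, so its count does not measure ATF4 activity. Over both directions together, 40.5% of this list passed, close to all genes, but the directions were uneven. The 15 of 42 higher stand beside 2556 of all 12787 genes, and the 2 lower beside 2680 (21.0%).

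**Figure D5:**
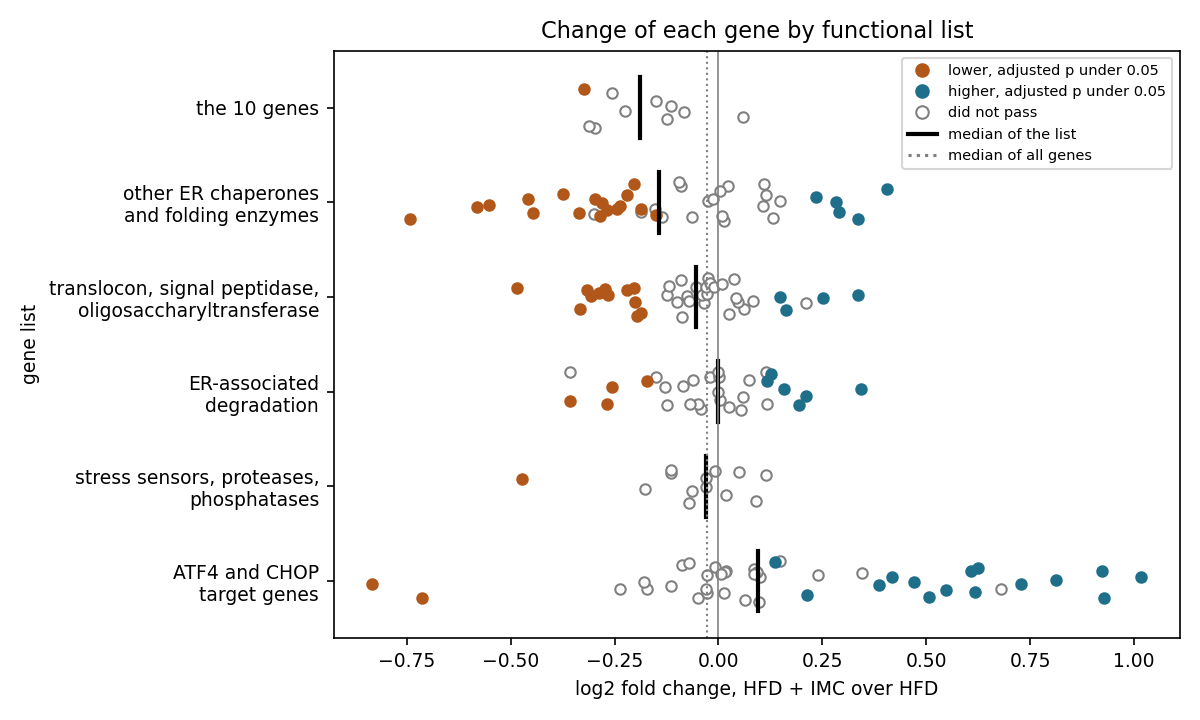
Log2 fold change in IMC-treated over HFD control mice for each gene of the 10 and of the 5 functional lists; brown points were lower and blue points higher at an adjusted p under 0.05 by limma, open points did not pass, thick bars are list medians and the dotted line is the median of all genes. Of the other chaperones and folding enzymes 17 are lower and 5 higher, and of the ATF4 and CHOP targets 2 are lower and 15 higher.

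Outside the 10 genes, 11 listed genes held the ER stress response element in their promoter window, of which 5 were lower and 2 higher by limma at an adjusted p under 0.05, beside 21.0% lower and 40.9% called among all genes. The lower genes were Zfp57, Creld2, Adcy3, Alg12 and Hnrnpa3 and the higher ones Acacb and Calr4. Their median log2 fold change was -0.06. Creld2 and Dnajc3, both in the list of ER chaperones, and Syvn1, which encodes a ubiquitin ligase of ER-associated degradation, were among them. Neither Dnajc3 (log2 fold change -0.06, SE 0.07) nor Syvn1 (-0.05, SE 0.07) passed.

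Marker genes of cell types changed with the same comparison. The WAT label was borne out by adipocyte markers, all 12 of which were listed, with Lpl the most abundant (13.29 ± 0.033 log2 CPM in HFD control mice, SD, n = 5). The summed adipocyte markers ranged from 20444 to 25873 CPM in HFD control mice and from 32115 to 36851 CPM in IMC-treated mice. Of the 12, 11 were higher, while Lpl did not pass (log2 fold change 0.15, adjusted p = 0.315 by limma), although its groups did not overlap. Of the 13 macrophage markers 12 were lower and 0 higher, led in level by Gpnmb, and 5 of 9 fibroblast and progenitor markers were lower (Col3a1, the most abundant, did not pass), namely Pi16, Col1a1, Lum, Dcn and Col1a2. The summed macrophage markers were 20339, 15730, 17721, 15698 and 14847 CPM in HFD control mice 1 to 5, and 9950, 9488, 12316, 13284, 12009 and 8066 CPM in IMC-treated mice 1 to 6. Control mouse 1 had the highest sum both of these markers and of the 6 chaperone genes, and IMC-treated mice 3, 4 and 5 had the highest sums of both among treated mice. Control mice 2 and 4 had nearly equal macrophage sums (15730 and 15698 CPM) but chaperone sums of 4863 and 3591 CPM. The order of control mouse 1 and of IMC-treated mice 3, 4 and 5 was not particular to macrophage markers. The adipocyte sum was lowest in control mouse 1 and, among treated mice, in mice 3, 4 and 5 (34384, 33293 and 32115 CPM). Mast cell markers also had their highest sum in control mouse 1, whereas the fibroblast and progenitor sum was highest in control mouse 3 (13770 CPM). The part of these cell types in the chaperone levels was not tested.
All 6 listed mast cell markers were lower, with a sum from 502 to 1149 CPM in HFD control mice and from 160 to 323 CPM in IMC-treated mice (Tpsb2 the most abundant). For plasma cells, a cell type rich in ER, the defining markers Jchain, Mzb1 and Tnfrsf17 and the B cell markers Ms4a1, Cd79a and Cd79b were not among the listed genes. Of the 3 listed genes of that list, Sdc1 (the most abundant) was lower, and Prdm1 and Irf4 did not pass by limma. None of the 7 T cell markers was listed. Of the endothelial markers 1 of 7 was higher (Cdh5, while Pecam1, the most abundant, did not pass), and of the mesothelial markers 1 of 5 was lower (Wt1, while Upk3b, the most abundant, did not pass). Only 2 of the 11 striated muscle markers were listed, Acta1 and Myh2, and both were higher. Myh2 was at a low level in HFD control mice (-1.10 ± 0.28 log2 CPM, SD, n = 5).

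Between 22320022 and 25155366 reads per mouse fell on the genes of the table, and none of the 10 genes had fewer than 695 reads in any mouse. The labels name no batch. For each of the 10 genes, the spread within groups was larger than the SD expected from counting alone. As each mouse gave 1 library, differences between mice and between library preparations cannot be told apart in that spread.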

How the data were processed

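RNA-seq libraries from the gonadal WAT of 11 mice were analyzed, grouped by their treatment label (HFD, n = 5; HFD with IMC, n = 6). Per the paper's methods, the authors used Trim Galore for trimming and STAR for alignment to mm10 (UCSC transcripts) and for counts per gene, removed low transcripts and scaled by the upper quartile in edgeR. The authors deposited 1 table of log2 CPM values for 12787 genes. It also holds columns of the authors' own comparison that were not used here, namely a log2 fold change, a likelihood-ratio score (as deposited) and a p-value and FDR (as deposited).

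The groups were compared with limma 3.58.1 in R 4.3.3 on the deposited log2 CPM, with a variance trend, no covariate, and p-values adjusted by Benjamini-Hochberg over the whole table, at a threshold of 0.05. No further filter was used. A test for counts had been planned for a table of counts. The CPM behind each log2 CPM moved in whole steps, and reads recovered from them (100% of values whole within 0.01 reads) served for depth and alternatives only. Intervals are 95% confidence intervals, and each p-value weighs a difference between the groups against the spread between mice.

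The 10 genes and all lists were chosen with earlier results of these data known. Genes named besides them were the 4 of smallest p in each list, Ern1 and Eif2ak3, the 3 most like Hspa5, Xbp1, Atf4 and Ddit3, and the most abundant marker of each cell type. Others were named after their values were seen, where a list had few genes called in 1 direction (such as Creld1, Edem2, Atf3, Gdf15 and Wt1) or where a promoter held the element. Sdf2l1, Pdia3, Hyou1, Sel1l and Dnajb9 were singled out, also after their values were seen. The limma step and the recovery of reads were tested on simulated data. The simulation for limma changed a small part of the genes, with noise independent between genes. These data differ from that setting, so it checked the code and not the calls made here. Protein sequences were not used here. Alternatives were limma voom on recovered reads, no variance trend, an added constant of 2 reads, scaling to total reads or by the median of ratios, only genes with at least 1 CPM in every mouse, an exact permutation test per gene, and each mouse left out.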

Additional observations from a re-analysis of the deposited data

Results flagged for a closer look

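The log2 CPM of Atf4 in HFD control mouse 1 was 7.42, far from the other control mice, which lay between 7.25 and 7.28. Its gap to the nearest control mouse was 0.785 of the range of the group, above the 95% critical value of Dixon's test for 5 samples. Chance alone passes this limit in about 1 of 20 groups, and 20 groups were examined (10 genes in 2 groups of mice), of which this was the only one. The same mouse had the highest value of the 6 chaperone genes and of Xbp1. Without it the log2 fold change of Atf4 was -0.08, with an adjusted p of 0.178 by limma.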

How the results depend on the processing

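The log2 fold change of each of the 10 genes kept its sign under all 17 alternative fits. The number of the 10 that passed was between 0 and 4 when each mouse was left out in turn, 2 under scaling to total reads (Calr and Atf4), and 1 in the main test and in the 5 other alternatives. It was 0 without HFD control mouse 1, 2 or 3 or IMC-treated mouse 1, 2 or 6, 3 without control mouse 4 and 4 without control mouse 5. Of the 13 genes for sensors, proteases and phosphatases, 3 passed under scaling to total reads, and between 1 and 3 with a mouse left out (3 without control mouse 5, 2 without control mouse 4 or IMC-treated mouse 1). The counts of the 4 other lists and of all genes (between 4299 and 5464) stayed within 1.5 times the main count. Scaling to total reads moved the median log2 fold change of all genes from -0.03 to -0.06. The exact test per gene gave 2 of the 10 an unadjusted p under 0.05, Calr (0.0281) and Atf4 (0.0130). No paired analysis was possible because the labels number the mice without pairing them. With 5 and 6 mice, differences of the size seen in the chaperone genes were close to the spread between mice, and those that missed the threshold are not shown to be absent.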
